A study of Homo sapiens with 2 samples.

Results

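Genes for 5 regulators of pre-mRNA splicing had a peak in the list of regions recovered with an antibody against SFRS8. They are SRSF11 and SRRM2, which encode an SR protein and an SR-related protein, and HNRNPF, HNRNPA1 and HNRNPA3, which encode hnRNP proteins. They were found in the deposited peak list by gene symbol and hold 5 of its 236 distinct peaks, 1 peak per gene. They were chosen by their presence in this list, which rests on the same reads, so the read counts and ratios of these peaks are given as descriptions without a test. The data come from RNA immunoprecipitation followed by sequencing (RIP-seq) in ARP1 cells, an established line of human multiple myeloma. The groups were 1 library of RNA bound to the anti-SFRS8 antibody (the IP library) and 1 input library made without antibody. No treatment or genetic change is given for either group, and there was no replicate. The labels' protocol also describes incubating RNA fragments with an antibody against m6A, and whether this was done for these libraries is not clear.

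SFRS8, now named SFSWAP, is a nuclear protein with an arginine- and serine-rich region that influences the choice of splice sites. SR proteins carry such regions as well and mostly promote the use of the exons they bind, whereas hnRNP proteins coat nascent transcripts and often repress nearby exons. Transcripts of many splicing regulators are alternatively spliced themselves, and several regulators control the splicing of their own RNA.

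The list gives whole reads of each peak in a column of counts and in a column of control counts, read here as the IP and the input library. The header does not name these. If they were exchanged, the order of the ratios would turn, and the ranks among similar peaks would be those given for that case below. Total depths of the libraries are unknown, so the IP reads per control read of a peak (the ratio) can be compared between peaks but a value under 1 does not show depletion. Intervals are at the 95% level and exact. Those of a ratio rest on how a peak's reads divide between the libraries (Clopper-Pearson), and those of a quotient of ratios on the reads of both peaks. Those of a share of reads are binomial within a library. All cover counting error only, because each group had 1 library and variation between libraries could not be measured. PCR copies of a molecule could not be recognised, so the intervals may be too narrow even for counting error. Across the list the median peak held 21.5 IP and 145 control reads, the fewest IP reads were 11, and the median ratio was 0.190. Of 13 plasma cell marker genes, XBP1, MZB1, JCHAIN and ITGB7 had a peak, as did none of the 6 T cell, 6 myeloid, 5 erythroid and 5 stromal markers.

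SRRM2, which encodes a large scaffold protein of the spliceosome and of nuclear speckles, had the highest ratio of the 5 genes. Its peak (ENSG00000167978) extended over bases 2757511 to 2769480 of the plus strand of chromosome 16 (GRCh38). It held 75 IP and 310 control reads, and its ratio was 0.242 (0.185 to 0.312). It was the only one of the 5 above the median of all peaks, and its interval reached just below that median. Without the chromosome 21 interval of ribosomal RNA genes described below, the median was 0.162 and SRSF11 lay above it as well. SRSF11, an SR protein that associates with the factor U2AF at 3′ splice sites, had 21 IP and 127 control reads between 70250251 and 70255500 on the plus strand of chromosome 1 (ENSG00000116754). Its ratio of 0.165 (0.0989 to 0.264) lay within counting error of the median.

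Among the hnRNP genes, HNRNPF had the highest ratio and HNRNPA3 the lowest. HNRNPF encodes a protein that binds runs of G in pre-mRNA. Its peak on the minus strand of chromosome 10, from 43386601 to 43388000 (ENSG00000169813), held 24 IP and 155 control reads, which gives 0.155 (0.0963 to 0.239). HNRNPA1 is a well-studied repressor of exons, often acting against SR proteins. Its peak on the plus strand of chromosome 12, from 54282071 to 54286310 (ENSG00000135486), held as many IP reads as that of SRRM2, 75, but 904 control reads, a ratio of 0.0830 (0.0647 to 0.105). HNRNPA3, a close relative of HNRNPA1, had 13 IP and 320 control reads between 177215536 and 177221520 on the plus strand of chromosome 2 (ENSG00000170144), for a ratio of 0.0406 (0.0214 to 0.0705). The intervals of HNRNPA1 and HNRNPA3 lay wholly below the median of all peaks, whereas those of SRSF11, SRRM2 and HNRNPF spanned it.

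**Figure D1:**
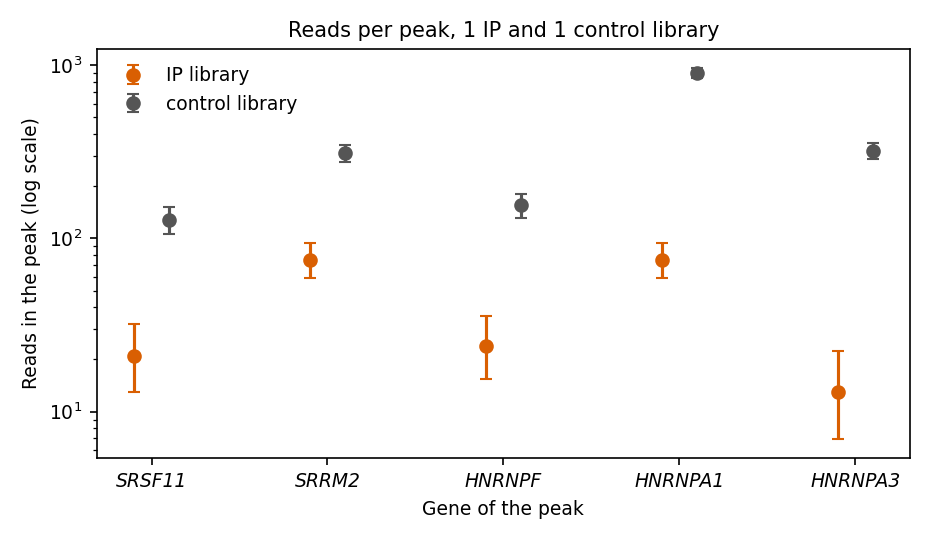
IP reads (orange) and control reads (grey) in the peak of each gene, on a log axis, with exact Poisson 95% intervals that cover counting error only; each point is 1 library. SRRM2 and HNRNPA1 share 75 IP reads but differ in control reads (310 and 904), and SRRM2 and HNRNPA3 have near-equal control reads (310 and 320) but differ in IP reads (75 and 13).

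All 5 ratios had an interval wholly below 1, as had 76.3% of all peaks, and 4 of 5 lay below the median, as do 50% of peaks by definition. An interval wholly below the median was found for 2 of the 5 and for 40.3% of all peaks. These shares are those of a small set beside the whole list, and nothing particular to splicing genes is read from them. Together the 5 peaks held 208 of 12068 IP reads in peaks (1.72%, 1.5 to 1.97) and 1816 of 87259 control reads in peaks (2.08%, 1.99 to 2.18). Without the 15 peaks of a chromosome 21 interval that holds ribosomal RNA genes, the 5 peaks held 2.30% of IP reads (2.00 to 2.63) and 2.12% of control reads (2.02 to 2.21), so the order of the shares turned with these peaks.

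The order of the ratios within the group was SRRM2, SRSF11, HNRNPF, HNRNPA1 and HNRNPA3. Quotients of ratios between genes do not depend on library depth. SRRM2 exceeded SRSF11 by a factor of 1.46 (0.848 to 2.61), and SRSF11 exceeded HNRNPF by 1.07 (0.538 to 2.11), so the first 3 places of the order lay within counting error. HNRNPF exceeded HNRNPA1 by a factor of 1.87 (1.09 to 3.10), and HNRNPA1 exceeded HNRNPA3 by 2.04 (1.11 to 4.07). Of the 10 pairs, the largest quotient was that of SRRM2 over HNRNPA3, at 5.96 (3.19 to 11.9), genes with nearly the same number of control reads. These intervals are descriptions of 1 library per group and not tests between genes.

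The peaks differed in where they lay on their genes. Those of SRRM2, HNRNPA1 and HNRNPA3 covered most of the gene body, 59.2%, 61.5% and 52.5% of the listed gene length, introns included. All 3 lay wholly inside the gene, with their centres at 55.3%, 58.0% and 52.3% of the way from the 5′ to the 3′ end. The peaks of SRSF11 and HNRNPF covered only 5.92% and 5.94% of longer genes, of 47371 and 23550 bases. HNRNPF's peak lay inside the gene with its centre at 92.9%. SRSF11's peak was centred at 99.6%, and 2448 of its 5250 bases lay past the listed 3′ end of the gene.

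Over all 209 protein-coding peaks the median centre was at 80.9% of the gene and the median cover was 12.6% of its length (quartiles 3.05% and 35.5%). The centre lay in the middle part of the gene, when it is split into 3 equal parts, for 47 of the 209 peaks (22.5%) and for 3 of the 5 genes here. The 3′-most part held 145 (69.4%), SRSF11 and HNRNPF among them. Like SRSF11's, 75 of the 209 peaks (35.9%) were not wholly inside the gene. The listed lengths of the genes with the larger cover were 6896 bases for HNRNPA1, 11396 for HNRNPA3 and 20210 for SRRM2.

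**Figure D2:**
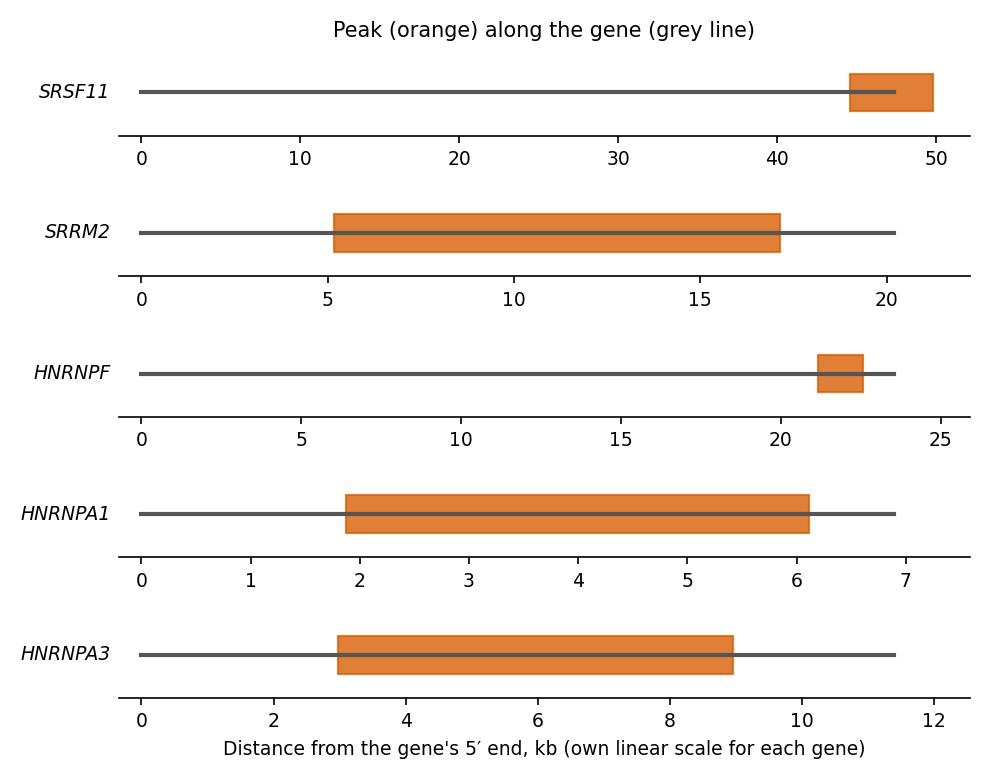
Position of each peak (orange) along its gene (grey line), as distance from the gene's 5′ end in kb, with an own linear scale for each gene. The peaks of SRRM2, HNRNPA1 and HNRNPA3 span from 25.6%, 27.2% and 26.1% of the way into the gene to 84.9%, 88.7% and 78.6%, and those of HNRNPF and SRSF11 lie at the 3′ end.

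On the strands that hold these genes, peaks lay on a grid of fixed steps, with 1 exception on chromosome 12. Starts and widths were whole multiples of 630 bases for all 12 peaks on the plus strand of chromosome 16, where SRRM2 lies, and of 200 bases for all 15 on the minus strand of chromosome 10, where HNRNPF lies. The step was 315 bases for the 13 peaks around HNRNPA3, 250 for the 27 around SRSF11, and 265 for 16 of the 17 around HNRNPA1. The SRRM2 peak of 11970 bases was thus 19 steps wide, as was the HNRNPA3 peak of 5985 bases, while HNRNPF's 1400 bases were 7 steps, HNRNPA1's 4240 were 16 and SRSF11's 5250 were 21. The SRRM2 peak was wider than 218 of the 236 peaks and the HNRNPF peak wider than 90. SRRM2 and HNRNPA3 had equal numbers of steps, so the difference in width between them is that in step.

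Read density differed between the peaks. Per kb of peak, HNRNPF and HNRNPA1 had 17.1 and 17.7 IP reads, SRRM2 6.27, SRSF11 4.00 and HNRNPA3 2.17. Control reads per kb were 111 for HNRNPF, 213 for HNRNPA1, 25.9 for SRRM2, 24.2 for SRSF11 and 53.5 for HNRNPA3. In a single step the IP library averaged 1 read in SRSF11 and 0.684 in HNRNPA3, against 3.43 in HNRNPF, 3.95 in SRRM2 and 4.69 in HNRNPA1. SRSF11 and HNRNPA3 were thus listed with about 1 IP read per step or fewer.

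Ratios in the list were lower where control reads were more numerous (Spearman rank correlation −0.82 across the 236 peaks, which share both libraries). The ratio has the control reads as its denominator, and no listed peak had fewer than 11 IP reads, so a gene with many control reads can reach lower ratios than a gene with few. At 127 control reads, as in SRSF11, 11 IP reads would give a ratio of 0.0866, and at 904, as in HNRNPA1, 0.0122. Each gene was therefore set beside the peaks whose control reads lay within a factor of 2 of its own.

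**Figure D3:**
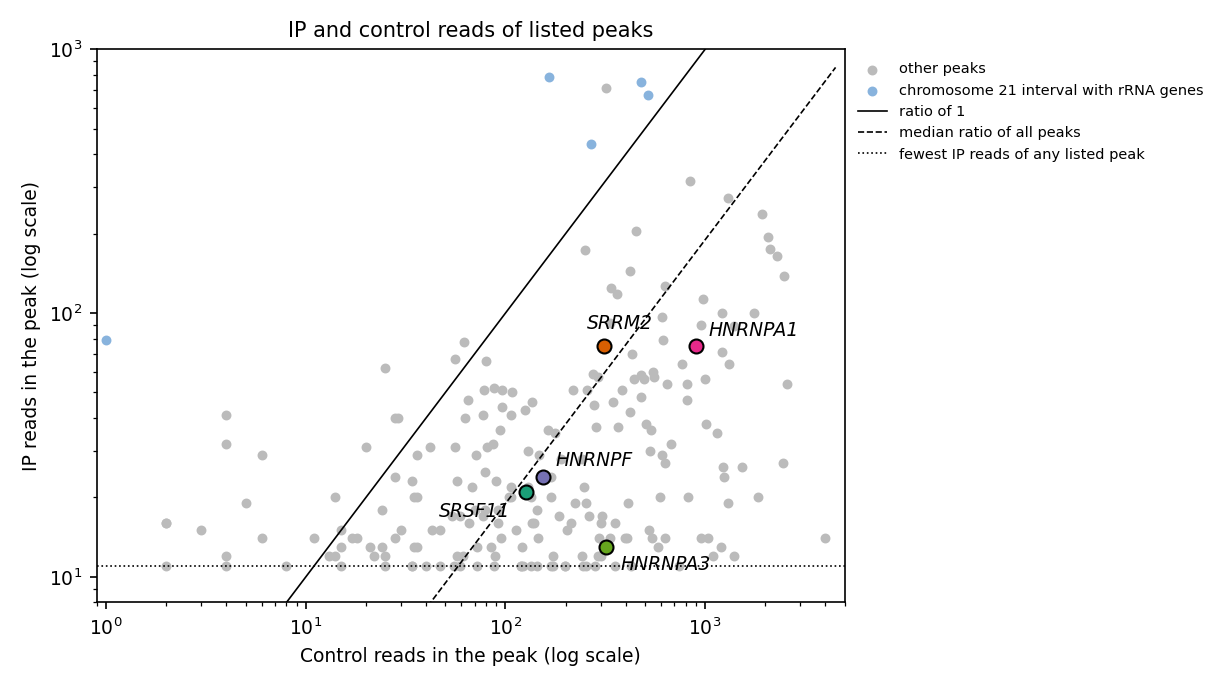
IP against control reads of the 224 peaks with control reads, both on log axes, with the 5 genes labelled; the 12 peaks without control reads cannot be drawn on a log axis. The solid line marks a ratio of 1, the dashed line the median ratio of 0.190 and the dotted line the 11 IP reads below which no peak was listed. HNRNPA3 lies close to the dotted line and SRRM2 just above the dashed line.

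In that setting SRRM2 lay high, HNRNPA3 low, and the others nearer the middle. SRRM2 exceeded 63 of 74 such peaks (85.1%), at 2.53 times their median of 0.0955. With 75 IP reads it stood above the 28 of the median peak there. HNRNPA3 exceeded only 11 of 76 (14.5%), at 0.426 times a median of the same size, with 13 IP reads beside a median of 28.5. Its ratio lay close to 0.0344, the value that 11 IP reads would give.

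HNRNPA1, although low in the list as a whole, exceeded 32 of the 48 peaks of similar control reads (66.7%), at 1.47 times their median of 0.0566. SRSF11 exceeded 36 of 72 (50%) and HNRNPF 42 of 77 (54.5%), with ratios 1.02 and 1.05 times the medians of those peaks.

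The place of SRRM2 depended on what was held alike. Among the 19 peaks alike in control reads and also in width, a comparison chosen after the values were seen, 68.4% had a lower ratio. Among the 70 peaks alike in control reads per kb 38.6% did. HNRNPA3 stayed low in both settings, with 3.45% of 29 and 4.35% of 69 peaks below it. Per kb of peak, SRSF11 moved to 25.8% of 66 peaks and HNRNPA1 to 42.9% of 56, while HNRNPF remained at 54.7% of 64.

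With the libraries exchanged, each gene was ranked by control reads per IP read among peaks within a factor of 2 in IP reads, again a choice made after the values were seen. HNRNPA3 then exceeded 109 of 133 peaks (82.0%) and HNRNPA1 49 of 61 (80.3%), while SRRM2 exceeded 26 of 61 (42.6%), HNRNPF 83 of 149 (55.7%) and SRSF11 88 of 169 (52.1%). Control reads per IP read is the inverse of the ratio, so a low place tends to become a high one, as for HNRNPA3. SRRM2 lay nearer the middle. HNRNPA1 did not turn in this way and lay above the middle in both rankings, at 66.7% by the ratio and 80.3% here. The peaks that each gene was ranked among also differ between the 2 rankings.

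**Figure D4:**
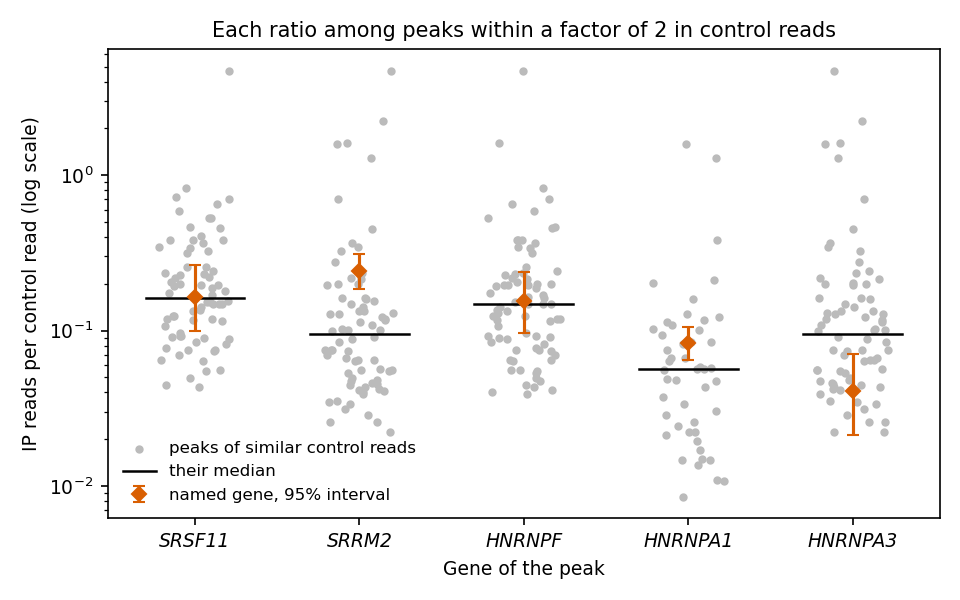
Ratio of each gene (orange diamond, exact 95% interval) among the peaks whose control reads lie within a factor of 2 (grey points, with their median as a black line), on a log axis. SRRM2 lies above most of its 74 peaks, HNRNPA3 below most of its 76, and SRSF11 and HNRNPF near the medians of theirs.

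The genes nearest in control reads, the measure of likeness used here over the 2 libraries, show the same spread. Near SRRM2 lay HMGN2, a nucleosome-binding protein gene, with 17 IP and 303 control reads (0.0561, 0.0323 to 0.0913), and SRGN, a secretory granule proteoglycan gene, with 16 and 301 (0.0532, 0.0300 to 0.0878). Both had far fewer IP reads than the 75 of SRRM2. Near HNRNPA3 lay PFN1, the gene of the actin-binding protein profilin, with 14 and 334 reads (0.0419, 0.0227 to 0.0713), and the linker histone gene HIST1H1E, which had the same 320 control reads but 712 IP reads (ratio 2.22, 1.95 to 2.55). Near HNRNPA1 lay ACTG1, a cytoplasmic actin gene, with 90 and 958 reads (0.0939, 0.0748 to 0.117), and the ribosomal protein gene RPL11, with 113 and 970 (0.116, 0.0950 to 0.142). SRSF11 lay beside ARHGAP21, with 22 and 130 reads (0.169, 0.103 to 0.267), and BIN2, with 43 and 125 (0.344, 0.237 to 0.490). PPP1R16B, also with 130 control reads, tied with ARHGAP21 and came after it by symbol, and it had 30 IP reads (0.231, 0.150 to 0.345). HNRNPF lay beside PRRC2C, with 29 and 147 reads (0.197, 0.128 to 0.295), and the core histone gene HIST2H2AC, with 36 and 164 (0.220, 0.149 to 0.316). Only for SRRM2 did both neighbours have intervals apart from that of the gene itself.

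The authors' deposited table ranks the 5 peaks otherwise. Its score was 215 for HNRNPA1, 91.4 for HNRNPF, 58.3 for SRRM2, 54.8 for HNRNPA3 and 16.5 for SRSF11, of which HNRNPA1's exceeded 196 and SRSF11's 9 of the other peaks. In the authors' deposited table the p-values ran in nearly the same order, from 1.17e-304 for HNRNPA1 and 4.63e-134 for HNRNPF to 4.23e-35 for HNRNPA3, 1.12e-33 for SRRM2 and 5.78e-05 for SRSF11. HNRNPA3 was thus scored much like SRRM2, although SRRM2 had more IP reads at similar control reads. Divided by the number of steps in the peak, the deposited score was 13.4 for HNRNPA1 and 13.1 for HNRNPF, 3.07 for SRRM2, 2.89 for HNRNPA3 and 0.787 for SRSF11.

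Across all 236 peaks the deposited score went with control reads per kb (Spearman rank correlation 0.78) more closely than with IP reads per kb (0.44), and it ran against the ratio (−0.49). These are descriptions over peaks that share both libraries. The deposited empirical false discovery rate was the same number as the deposited p-value for all 5 peaks and for 227 of 236 in the list (relative tolerance 1e-06).

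**Figure D5:**
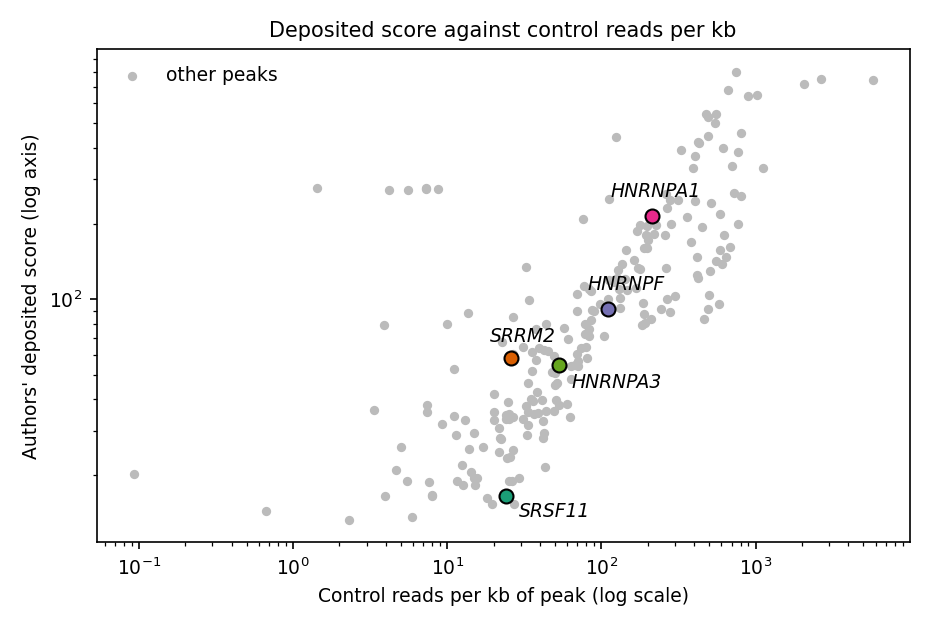
The authors' deposited score against control reads per kb of peak, both on log axes, for the peaks with control reads, with the 5 genes labelled. HNRNPA1, with 213 control reads per kb, has the highest score of the 5 (215) and SRSF11, with 24.2, the lowest (16.5).

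Few relatives of these genes were listed. SRSF11 was the only one of 14 SR protein genes with a peak (7.14%), and SRRM2 the only one of 35 SR-related genes (2.86%). The SR-related list includes SFSWAP itself and SRRM1. Of 32 hnRNP genes 4 had a peak (12.5%), the fourth being PCBP1, which encodes the poly(C)-binding protein also called hnRNP E1. None of 49 core spliceosome genes had one. For comparison, the list names 206 protein-coding genes by its own annotation, beside 20056 protein-coding genes in the RefSeq table (1.03%). Apart from PCBP1, the family genes with a peak were chosen by their presence in this list. The family shares therefore cannot serve as a test against the share of all protein-coding genes. How strongly the genes without a peak were expressed is also not known here, so these counts do not show that one family was preferred.

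PCBP1 had 20 IP and 134 control reads between 70087816 and 70089390 on the plus strand of chromosome 2, or 0.149 (0.0883 to 0.240). It lay near HNRNPF and SRSF11 in reads and ratio. Of the hnRNP A/B relatives of HNRNPA1 and HNRNPA3, HNRNPA0, HNRNPA2B1 and HNRNPAB had no listed peak, nor had HNRNPH1, HNRNPH2 and HNRNPH3, the relatives of HNRNPF.

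In the gene ontology annotation of the deposited list, all 5 genes carried the process term RNA splicing, which follows from their choice as splicing regulators. The term was carried by 8 of 192 annotated genes (4.17%), these 5 included. The others were PCBP1, the chaperone gene HSPA8 and YBX1, which encodes a cold-shock domain RNA-binding protein. HSPA8 had 138 IP and 2487 control reads (0.0555, 0.0464 to 0.0659) and YBX1 27 and 626 (0.0431, 0.0282 to 0.0634). Both were chosen after their values were seen, and both were near HNRNPA3 in ratio. HSPA8 lay outside the factor of 2 around the 320 control reads of HNRNPA3, so its ratio is not one of a like peak. The function term RNA binding, shared by all 5, was also carried by 82 of 191 annotated genes (42.9%). The list's KEGG pathway for the spliceosome named HNRNPA1 and HNRNPA3 but neither SRSF11, SRRM2 nor HNRNPF. It named 4 genes in all, with HSPA8 and PCBP1, among 112 genes with any KEGG pathway.

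HNRNPA1 and HNRNPA3 have many retrocopies, and how reads that match several copies were assigned is not given in the sources used here, so their read counts are uncertain; this was not tested. The RefSeq table for GRCh38 lists 75 pseudogenes named after HNRNPA1, with 2 further HNRNPA1-like genes, and 17 named after HNRNPA3, against 1 each for SRSF11 and HNRNPF and 0 for SRRM2. None of them overlapped a listed peak. The HNRNPA1 peak was also listed with an unnamed overlapping transcript of the same strand (ENSG00000258344), and reads of the 2 cannot be told apart. No other RefSeq gene on either strand overlapped any of the 5 peaks. No miRNA and no promoter window of separate reference sets overlapped them either.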

How the data were processed

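RIP-seq reads of 1 IP and 1 input library of ARP1 cells were used as a single peak list. The submitters' processing notes name the build GRCh38, HOMER and FastQC 0.11.5. The aligner and the peak caller used are not given in the sources used here. Deposited counts are whole reads per peak without scaling. The deposited log-odds score and the deposited p-values are the authors' and were used only to describe peaks. Another 2 columns of values per library were not used. The 279 rows were reduced to 236 distinct peaks. Ratios, exact intervals and ranks were computed with Python 3.11.15, pandas 2.3.3 and scipy 1.17.1, after a check on simulated reads. That check covered the code only and does not bear on how real reads vary. A peak with 0 control reads took a floor of 3. With 1 library per group no test was made. The genes named are the 5 members, any other gene of 4 splicing gene lists with a peak, and the 2 protein-coding genes nearest each member in control reads, with ties by symbol. Cell type markers come from lists of marker genes, and PPP1R16B, HSPA8 and YBX1 were named after their values were seen. The members and lists were chosen with earlier results of these data known. Peaks alike in control reads were also sought with other windows, per kb and by width.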

Additional observations from a re-analysis of the deposited data

How the results depend on the processing

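Of 66 values recomputed under other settings, 48 stayed within the binomial interval (for ranks, over peaks taken as independent), the part of the gene or the factor of 1.5 set for them, and 18 moved. Ratios were equal when reads were summed per gene, since each gene had 1 peak, and when taken per kb, since the width cancels. These recomputed ratios could not move, and they are counted among the 48. With similar control reads per kb in place of control reads, the share of peaks with a lower ratio moved from 50% to 25.8% for SRSF11, from 85.1% to 38.6% for SRRM2, from 66.7% to 42.9% for HNRNPA1 and from 14.5% to 4.35% for HNRNPA3. Ranked by the authors' score, it was 2.78% for SRSF11 and 21.6% for SRRM2. With width held alike as well, it was 68.4% for SRRM2 and 3.45% for HNRNPA3. With the libraries exchanged, it was 42.6% for SRRM2, 80.3% for HNRNPA1 and 82.0% for HNRNPA3. These are ranks by control reads per IP read, the inverse of the ratio, among peaks of similar IP reads. They were held against the intervals of the ranks by ratio, as were the ranks by score. Whether such a rank stayed or moved therefore does not measure stability, although it is counted among the 66. The cause of the moves was not tested. The ends of the wide peaks lay in other parts of the gene than their centres by construction, at 25.6% and 84.9% in SRRM2, 27.2% and 88.7% in HNRNPA1, and 26.1% and 78.6% in HNRNPA3. Without the chromosome 21 interval, added after the values were seen, the 5 genes held 2.30% of IP reads and 3 of 5 ratios lay below the median. No paired analysis was possible because each group had 1 library, and no replicate could be left out. With 13 to 75 IP reads per peak, counting error limits the order of these genes.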
